A study of Homo sapiens with 3 samples.

Results

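YAP-TEAD regulators and target genes were examined in T24 cells, a human bladder carcinoma line, after irradiation and after irradiation with an shRNA against HDAC6. They are the 9 genes of a deposited count table of 58381 genes whose Ensembl identifiers belong to YAP1, WWTR1, TEAD1, CCN1, CCN2, ANKRD1, AMOTL2, LATS2 and AJUBA. CCN1 and CCN2 carry the symbols CYR61 and CTGF in older annotation. RNA-seq was performed on 3 libraries with 1 library per condition. They were cells labelled as empty and as control (Ctrl), cells exposed to ionising radiation (RT), and irradiated cells with HDAC6 knockdown (RT + shHDAC6). The study calls the Ctrl cells untreated. The labels give 10 Gy from a caesium source in a protocol shared by all 3 libraries, taken here as the dose of the irradiated cells. The study's qPCR of control and shHDAC6 cells used a lower dose. The labels also describe T24 cells infected with lentivirus carrying either the shRNA or an empty pLKO.1 control vector, followed by puromycin selection. The study's text calls the comparator cells parental. The time between irradiation and RNA extraction was not given in the sources used here. There was no library with the knockdown and without irradiation, so an effect of the shRNA itself cannot be told apart from an effect on the radiation response.

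Hippo signalling is a kinase cascade that restrains growth. The kinases MST1 and MST2 with their scaffold SAV1 activate LATS1 and LATS2, which phosphorylate the coactivators YAP1 and TAZ (encoded by WWTR1) and hold them in the cytoplasm. When the cascade is quiet, as on stiff matrix or under actin tension, YAP1 and TAZ enter the nucleus, bind the TEAD transcription factors and switch on genes such as CCN1, CCN2 and ANKRD1. Several of the genes switched on, among them LATS2 and AMOTL2, restrain YAP1 in turn. Transcript levels carry no information on the phosphorylation or location of YAP1.

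After RT, the transcripts of 4 well-known YAP-TEAD target genes rose together: CCN1 3.71-fold, CCN2 3.34-fold, ANKRD1 2.92-fold and AMOTL2 2.52-fold. LATS2, also named above as a target, stood at 1.26-fold, too small for a call. The transcript of the coactivator gene WWTR1 fell 1.96-fold, while YAP1 and TEAD1 stayed below the size required for a call. In RT + shHDAC6 the targets parted. Compared with RT, CCN2 fell 3.31-fold to the level of Ctrl, CCN1 fell 1.71-fold to a level still 2.17-fold above Ctrl, and ANKRD1 rose a further 1.94-fold.

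A gene was called higher or lower when its log2 ratio, after TMM scaling of the libraries, was at least 1.5-fold in size with a 95% counting interval that did not include 0. With 1 library per condition no difference has a replicate check, no p-value is given, and the intervals cover counting error only. Reads lacking molecular identifiers can stem from the same molecule, so the intervals may be too narrow even for that error. In bulk RNA, a smaller number of expressing cells and less RNA per cell cannot be told apart. The 3 comparisons share libraries: RT stands in 2 of them, so a low or high RT library would move a gene in opposite directions in RT against Ctrl and in RT + shHDAC6 against RT.

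The libraries held between 35424086 and 41811165 counts, and a limit of 3 counts, below which a 0 cannot be told from a low level, was equal to 0.0662 to 0.0894 CPM (counts per 1000000 of a library's TMM-scaled total). RNA encoded by mitochondria made up between 3.75% of counts (Ctrl) and 6.09% (RT), with 5.51% for RT + shHDAC6. HDAC6 (ENSG00000094631), the targeted gene, had read counts of 3098 (Ctrl), 2383 (RT) and 2170 (RT + shHDAC6). Its transcript in RT + shHDAC6 stood at 0.872-fold of RT, a log2 ratio of -0.20 with an interval from -0.28 to -0.11. This is not a call under the 1.5-fold rule, so the label of knockdown was not matched by a called fall under that rule. In a re-implementation of the NOISeq procedure used by the study, its probability was 0.52. That is a fall under the limit of 0.4 but not under one of 0.8. The library is called RT + shHDAC6 by its label. The study itself reports a knockdown in shHDAC6 T24 cells, from qPCR of HDAC6 mRNA and from Western blots of the protein. All 6 epithelial markers had counts, with a summed level of 312 CPM in Ctrl, 414 CPM in RT and 339 CPM in RT + shHDAC6, although 4 of the 6 had a log2 ratio below 0 in RT against Ctrl (median -0.44) and 5 of the 6 one above 0 in RT + shHDAC6 against RT (median 0.29). The exception in the latter was KRT7, which fell there with a log2 ratio of -2.75. The 9 urothelial markers summed to 92.8, 70.5 and 41.2 CPM in the same order. GATA3, PPARG and KRT5 were well counted. GATA3 and PPARG fell in RT + shHDAC6 against RT (log2 ratios -1.07 and -0.95), whereas KRT5 had a log2 ratio of 0.36 there, not a call. TP63 had 92, 29 and 28 counts. UPK1A had 18, 2 and 2 counts, and UPK1B, UPK2, UPK3A and KRT20 had 0 to 3 counts in every library, so the uroplakins, which define differentiated urothelium, were near or at 0.

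The promoters are shown for the 3 target genes that rose after RT and then took different courses in RT + shHDAC6. RefSeq promoter sequence (GRCh38.p14) was matched for 7 of the 9 genes, with no entry for CCN1 and TEAD1. Each line below gives the 250 bases before the start of transcription, written from 5′ to 3′ on the strand of the gene, with every copy of GGAATG, the core letters of the TEAD binding motif, on either strand in capitals (its reverse complement reads CATTCC).
CCN2 promoter, chr6:131951373-131951622, minus strand: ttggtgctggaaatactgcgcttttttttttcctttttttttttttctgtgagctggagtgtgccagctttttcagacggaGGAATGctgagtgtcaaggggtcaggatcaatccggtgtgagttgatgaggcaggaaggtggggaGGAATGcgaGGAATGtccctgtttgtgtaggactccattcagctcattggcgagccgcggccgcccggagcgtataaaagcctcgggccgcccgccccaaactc
ANKRD1 promoter, chr10:90921088-90921337, minus strand: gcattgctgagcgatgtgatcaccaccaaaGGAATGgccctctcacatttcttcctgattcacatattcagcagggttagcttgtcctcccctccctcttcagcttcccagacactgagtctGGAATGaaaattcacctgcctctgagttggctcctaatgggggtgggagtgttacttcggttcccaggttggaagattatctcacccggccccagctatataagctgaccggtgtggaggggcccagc
AMOTL2 promoter, chr3:134374448-134374697, minus strand: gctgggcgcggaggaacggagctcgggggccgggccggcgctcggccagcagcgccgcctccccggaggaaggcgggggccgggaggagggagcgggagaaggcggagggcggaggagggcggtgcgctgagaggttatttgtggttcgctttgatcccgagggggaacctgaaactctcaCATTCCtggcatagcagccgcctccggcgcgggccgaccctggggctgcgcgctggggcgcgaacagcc
CCN2 held 3 copies, 169, 104 and 95 bases before the start, counted to the first base of the motif on the strand of the gene. ANKRD1 held 2 copies, 220 and 128 bases before it, and AMOTL2 held 1 copy, 69 bases before the start of 1 of its 2 listed promoters, the one further downstream in the gene. Among the other genes, YAP1 held 1 copy at 162 bases and AJUBA 1 copy at 59 bases in 1 of its 2 listed promoters, and WWTR1 and LATS2 held none in this window. In all, 5 of the 10 promoters listed for the 7 genes held a copy, compared with 11.9% of 35116 promoters of the same length. The genes were chosen as YAP-TEAD regulators and targets, so this difference is no separate evidence for TEAD control. TGANTCA is a loose form of the AP-1 motif, which has C or G as its middle base, whereas N stands for any base. TGANTCA was found in 1 of the 10 promoters, at 195 bases in ANKRD1, and in 6.57% of all promoters. The copy in ANKRD1 has T as its middle base, so none of the 10 promoters held the stricter AP-1 motif. The share of all promoters with the stricter motif was not computed. The copy in ANKRD1 shares no letters with either copy of GGAATG. The CArG box of SRF was found in none of the 10 promoters and in 1.16% of all promoters. These matches are letters only and do not show binding.

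Among the coactivators, YAP1 (ENSG00000137693; GRCh38 chromosome 11, 102110447 to 102233424, plus strand) had read counts of 8784 (Ctrl), 5289 (RT) and 7113 (RT + shHDAC6). After scaling, this was 193.7 CPM in Ctrl, 157.7 CPM in RT and 203.1 CPM in RT + shHDAC6. The level was lowest in RT and nearly equal in the other libraries: the log2 ratio was -0.30 (interval -0.35 to -0.25) for RT against Ctrl and 0.37 (0.31 to 0.42) for RT + shHDAC6 against RT, and neither reached 1.5-fold. Against Ctrl, RT + shHDAC6 had a log2 ratio of 0.07, which was -0.07 when libraries were scaled by their totals. Antisense genes cover 10.1% of the exon length of YAP1, and they had at most 8 counts.

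WWTR1 (ENSG00000018408; chromosome 3, 149517235 to 149736714, minus strand) had read counts of 9981 (Ctrl), 3758 (RT) and 3621 (RT + shHDAC6). It fell after RT, from 220.1 to 112.0 CPM, and the log2 ratio was -0.97, with an interval from -1.03 to -0.92. In RT + shHDAC6 it remained at 103.4 CPM, 1.08-fold below RT, so both irradiated libraries lay well below Ctrl. The paralogous coactivators thus changed their proportions. The YAP1 level per kilobase of exon was 1.16 times that of WWTR1 in Ctrl, 1.86 times in RT and 2.6 times in RT + shHDAC6. This within-library ratio, which no scaling of the libraries can alter, differed from Ctrl in RT by a log2 value of 0.68 (interval from 0.60 to 0.75). WWTR1-AS1, an antisense gene covering 9.05% of the exon length of WWTR1, had 30 to 51 counts.

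TEAD1 (ENSG00000187079; chromosome 11, 12674421 to 12944737, plus strand), the DNA-binding partner, had read counts of 9534 (Ctrl), 7591 (RT) and 9058 (RT + shHDAC6). The scaled level went from 210.2 CPM through 226.3 CPM to 258.7 CPM. TEAD1 was not called in any comparison, and its log2 ratio of 0.11 for RT against Ctrl was -0.11 with library totals. It was 0.30 (interval 0.26 to 0.34) for RT + shHDAC6 against Ctrl.

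Of the secreted matricellular proteins, CCN1 (ENSG00000142871; chromosome 1, 85580761 to 85584589, plus strand), which binds integrins and promotes adhesion and migration, had read counts of 23992 (Ctrl), 65788 (RT) and 40243 (RT + shHDAC6). The level was 529.0 CPM in Ctrl, 1961 CPM in RT and 1149 CPM in RT + shHDAC6. CCN1 rose after RT with a log2 ratio of 1.89 (interval 1.87 to 1.91), above 99.8% of genes with 100 or more counts in the higher library. It fell in RT + shHDAC6 against RT by 0.77 on the log2 scale (interval of the ratio -0.79 to -0.75), and 40.8% of the log2 rise was lost. It was nevertheless higher than in Ctrl, with a log2 ratio of 1.12 (interval 1.10 to 1.14).

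CCN2 (ENSG00000118523; chromosome 6, 131948176 to 131951372, minus strand), a profibrotic factor, had read counts of 2726 (Ctrl), 6734 (RT) and 2127 (RT + shHDAC6). In CPM it went from 60.1 to 200.8 and back to 60.7. The rise after RT had a log2 ratio of 1.74 (interval 1.68 to 1.80), and the log2 ratio of RT + shHDAC6 against RT was -1.72 (-1.80 to -1.65). Only 0.671% of such well-counted genes had a lower ratio than CCN2 in the latter comparison. RT + shHDAC6 against Ctrl gave a log2 ratio of 0.02 (-0.07 to 0.10), or -0.12 with library totals, so that 99.1% of the log2 rise was lost. LINC01013, an antisense gene that covers 11.9% of its exon length, had at most 6 counts.

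ANKRD1 (ENSG00000148677; chromosome 10, 90912096 to 90921087, minus strand), an ankyrin repeat protein of the nucleus and the sarcomere and a common readout of YAP activity, had read counts of 396 (Ctrl), 854 (RT) and 1726 (RT + shHDAC6). The level rose at each step, from 8.73 through 25.5 to 49.3 CPM. Its log2 ratio was 1.54 (interval 1.37 to 1.72) for RT against Ctrl and 0.95 (0.83 to 1.07) for RT + shHDAC6 against RT, where it lay above 98.9% of well-counted genes. In RT + shHDAC6, ANKRD1 was 5.65-fold higher than in Ctrl. It was the only gene of the 9, and of the listed pathway genes described below, that was called higher in both of these comparisons.

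Among the genes that restrain YAP1, AMOTL2 (ENSG00000114019; chromosome 3, 134355347 to 134375479, minus strand), an angiomotin family scaffold of cell junctions and itself a target, had read counts of 3379 (Ctrl), 6301 (RT) and 7933 (RT + shHDAC6). It rose after RT (log2 ratio 1.33, interval from 1.27 to 1.40). In RT + shHDAC6 it did not fall back: its log2 ratio against RT was 0.27 (0.22 to 0.32), not a call, and against Ctrl it was 1.60 (1.55 to 1.66). Its paralogue AMOTL1 had 3868, 2886 and 3869 counts in the same order and was not called, and the ratio of AMOTL2 to AMOTL1 per kilobase went from 1.35 in Ctrl to 3.38 in RT and 3.17 in RT + shHDAC6.

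LATS2 (ENSG00000150457; chromosome 13, 20973036 to 21061586, minus strand), the kinase that phosphorylates YAP1 and TAZ, had read counts of 1425 (Ctrl), 1325 (RT) and 1774 (RT + shHDAC6). Its scaled level was 31.4, 39.5 and 50.7 CPM. Neither step was called, with log2 ratios of 0.33 (interval 0.22 to 0.44) and 0.36 (0.26 to 0.46), but RT + shHDAC6 was 1.61-fold above Ctrl. That call was lost with library totals, which gave a log2 ratio of 0.56.

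AJUBA (ENSG00000129474; chromosome 14, 22971177 to 22982551, minus strand), a LIM protein that binds LATS kinases at junctions, had read counts of 1405 (Ctrl), 1695 (RT) and 1874 (RT + shHDAC6). It rose 1.63-fold after RT, from 31.0 to 50.5 CPM (log2 ratio 0.71, interval 0.60 to 0.81), a call that was also lost with library totals (0.49). At 53.5 CPM in RT + shHDAC6 it differed from RT by a log2 ratio of 0.08 (-0.01 to 0.18), which the depth did not separate from 0.

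**Figure D1:**
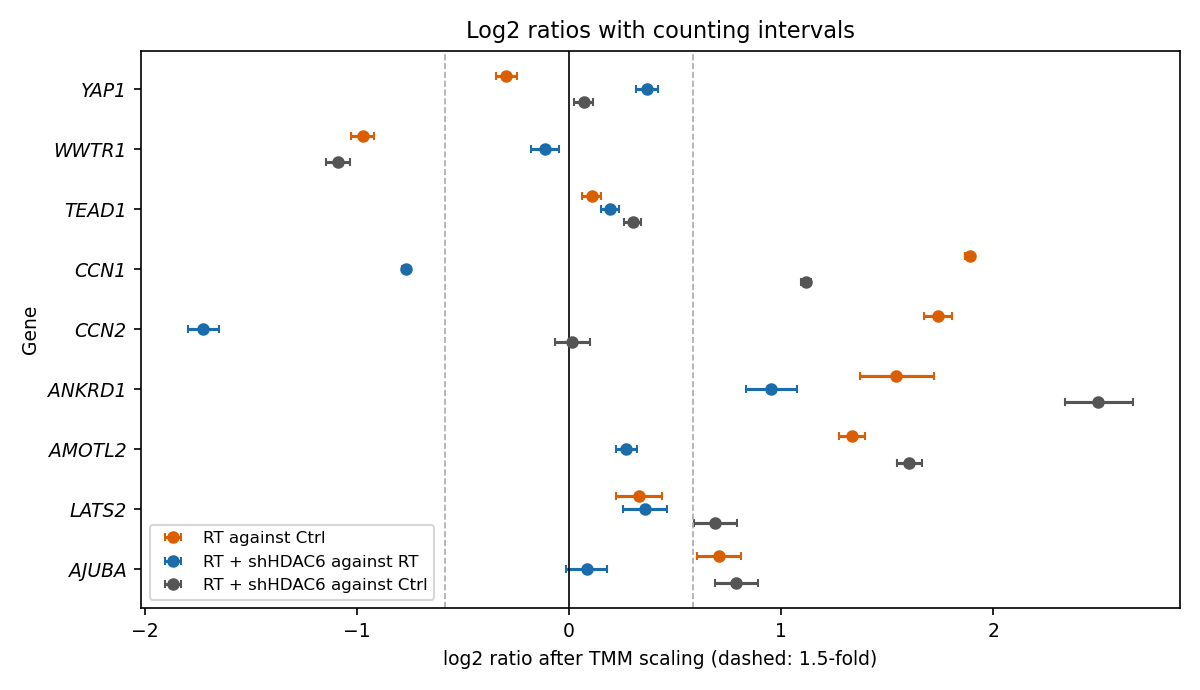
Log2 ratios of the 9 genes after TMM scaling for the comparisons of the 3 libraries, with 95% counting intervals and the 1.5-fold limits of a call. CCN1 and CCN2 lie above the limit for RT against Ctrl and below it for RT + shHDAC6 against RT, and ANKRD1 lies above it in both.

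Across the 9 genes, 5 were called higher and 1 lower in RT against Ctrl, with a median log2 ratio of 0.71. The background was 7.80% called higher and 8.31% called lower of the 32923 genes with a count in either library, or 15.7% and 10.1% of the 12670 well-counted genes, those whose higher library had 100 or more counts, whose median was 0.05. In RT + shHDAC6 against RT, 1 of the 9 was called higher and 2 lower, and their median was 0.19. Here the background was 3.30% higher and 4.20% lower of 31682 genes, or 3.0% and 5.29% of the 12066 well-counted genes, which had a median of -0.02. RT + shHDAC6 against Ctrl gave 5 genes higher and 1 lower and a median of 0.69, against 7.25% higher and 8.79% lower of 33073 genes, or 13.5% and 11.7% of the 12712 well-counted genes, which had a median of 0.04. All 9 genes had at least 100 counts in every library, so none was lost to a filter on low values.

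The order of the genes by level per kilobase shifted with the condition. In Ctrl, CCN1 (143 CPM per kilobase) was followed by YAP1 (30.7), WWTR1 (26.4), CCN2 (25.7), TEAD1 (19.6), AMOTL2 (11.5), LATS2 (5.60), AJUBA (5.26) and ANKRD1 (4.88). The counting intervals overlapped for WWTR1 and CCN2, for LATS2 and AJUBA, and for AJUBA and ANKRD1. In RT, CCN2 (85.9) and AMOTL2 (29.0) had passed YAP1 (25.0), and ANKRD1 (14.2) stood level with WWTR1 (13.4). In RT + shHDAC6, ANKRD1 (27.5) overlapped with CCN2 (26.0), a pair that had been at the bottom and in the middle of the order in Ctrl.

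Ratios between genes within a library do not depend on how libraries are scaled. The pairs below were chosen after the values were seen. The ratio of CCN2 to ANKRD1 per kilobase was 5.27 (Ctrl), 6.04 (RT) and 0.943 (RT + shHDAC6). Between Ctrl and RT it moved by 0.20 on the log2 scale (interval 0.01 to 0.38), and between RT and RT + shHDAC6 by -2.68 (-2.82 to -2.54). The ratio of CCN2 to CCN1 fell as well between the irradiated libraries, from 0.162 to 0.0836, a log2 difference of -0.95 (-1.03 to -0.88), and that of ANKRD1 to AMOTL2 grew from 0.49 to 0.788, a log2 difference of 0.68 (0.56 to 0.81).

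Many, but not all, of the other genes listed as YAP-TEAD targets also rose after RT. This list was chosen with earlier results of these data known, and whether YAP-TEAD drove the rise was not tested. In a list of 17 further YAP-TEAD target genes, 10 were called higher and 1 lower in RT against Ctrl, with a median log2 ratio of 0.69, compared with -0.14 over all genes with a count. Of the 16 that were well counted, 10 were called higher, beside 15.7% of all well-counted genes. Their median was 0.81, beside 0.05 for all well-counted genes. With library totals, 8 of the 17 were called higher and 2 lower, beside 4.28% and 14.7% of all genes with a count. That background also holds many genes with few counts, which are harder to call. The largest rises in the list were those of FJX1 (1138, 3700 and 2839 counts; log2 ratio 2.14), IGFBP3 (1306, 3600 and 1712 counts; 1.90), which binds insulin-like growth factors, and CRIM1 (14008, 33110 and 26493 counts; 1.68). In RT + shHDAC6 against RT, none of the 17 was called higher and 4 were called lower, and the median was -0.25 against -0.02 over all genes with a count, beside 5.29% called lower of all well-counted genes. The 4 were F3, TGFB2, IGFBP3 and CCDC80, and each of them had been called higher in RT.

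F3, which encodes tissue factor, the trigger of coagulation, had read counts of 1353 (Ctrl), 2106 (RT) and 450 (RT + shHDAC6). Its rise had a log2 ratio of 1.07 (interval 0.97 to 1.17) and its fall one of -2.29 (-2.44 to -2.14), to 2.32-fold below Ctrl. TGFB2, a TGF-β ligand, had 731, 868 and 228 counts in the same order, and its log2 ratio was 0.68 (0.54 to 0.83) after RT, 0.47 with library totals and then not a call. Its log2 ratio in RT + shHDAC6 against RT was -1.99 (-2.21 to -1.78), although genes on the same strand cover 22.7% of its exon length, so its counts are less certain. IGFBP3 fell by 1.13 on the log2 scale and CCDC80 by 0.62, and with library totals CCDC80 was called in neither comparison. NUAK2, a kinase that feeds back on YAP1, had 244, 450 and 575 counts, and like AMOTL2 it rose after RT (log2 ratio 1.32, interval 1.09 to 1.55) and stood above Ctrl in RT + shHDAC6 (1.61, 1.39 to 1.83).

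The other TEAD genes and cofactors took mixed courses. Of 7 TEAD partner genes, 6 had counts, 5 were well counted, and 1 was called higher and 3 lower in RT against Ctrl, beside 15.7% and 10.1% of all well-counted genes. TEAD4 had read counts of 2102 (Ctrl), 2356 (RT) and 1829 (RT + shHDAC6), with a log2 ratio of 0.60 (interval 0.51 to 0.69) after RT, a call that was lost with library totals (0.38) and under upper quartile scaling (0.54), and of -0.43 (-0.52 to -0.34) in RT + shHDAC6 against RT. TEAD3 (331, 112 and 176 counts) fell after RT with a log2 ratio of -1.13 (-1.45 to -0.81) and rose in RT + shHDAC6 against RT (0.59, 0.24 to 0.94), the latter call being lost with median-of-ratios scaling (0.58). TEAD2 (159, 77 and 56 counts) and VGLL3, a cofactor of TEAD proteins (705, 320 and 386 counts), fell after RT with log2 ratios of -0.61 and -0.70, and the call of TEAD2 was lost with median-of-ratios scaling (-0.55). Per kilobase, TEAD4 stood at 1.04 times TEAD1 in Ctrl, 1.46 times in RT and 0.95 times in RT + shHDAC6.

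Of 15 Hippo kinase and scaffold genes of the upstream cascade, all well counted, 3 were called higher and 1 lower in RT against Ctrl, a share close to the background of 15.7% and 10.1%. In RT + shHDAC6 against RT, 1 was called higher and 0 lower, beside 3.0% and 5.29%. SAV1, the scaffold of the MST kinases, had read counts of 1482 (Ctrl), 695 (RT) and 1152 (RT + shHDAC6). It fell after RT (log2 ratio -0.66, interval -0.79 to -0.53) and rose in RT + shHDAC6 against RT (0.67, 0.53 to 0.80), to the level of Ctrl. ATL1, on the other strand, covers 31.9% of the exon length of SAV1. The counts of SAV1 are therefore less certain if strands were not told apart in counting. The genes called higher after RT were RASSF1 (log2 ratio 0.72), the kinase gene TAOK2 (0.71) and FRMD6 (0.66). With library totals none was called higher and 5 were called lower, beside 4.28% and 14.7% of all genes with a count, a background that also holds genes with few counts. The median of the list in RT against Ctrl was -0.29. LATS1 was not called, with 3522, 2341 and 2373 counts, and the ratio of LATS2 to LATS1 per kilobase went from 0.612 in Ctrl to 0.856 in RT and 1.13 in RT + shHDAC6.

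Of 11 junction and polarity genes, 9 of them well counted, 2 were called higher and 0 lower in RT against Ctrl, close to the background of 15.7% called higher. None was called in RT + shHDAC6 against RT, beside 3.0% higher and 5.29% lower of all well-counted genes. The 2 called higher after RT were FAT1, a giant cadherin (12231, 15423 and 12558 counts; log2 ratio 0.77), and WTIP, a LIM protein related to AJUBA (558, 677 and 893 counts; 0.71), and neither was called with library totals. LIMD1, the other AJUBA relative in the list, was not called, at 6649, 5766 and 7399 counts. The 4 remaining CCN family genes had fewer than 100 counts in every library, with a highest count of 33. In RT against Ctrl, 1 of the 4 was called lower, beside 8.31% of all genes with a count. That call was lost with median-of-ratios scaling.

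SRF-MRTF target genes, which like YAP targets respond to actin, gave 2 called higher and 3 lower of 10 in RT against Ctrl, with a median log2 ratio of 0.12, and 0 higher and 1 lower in RT + shHDAC6 against RT. All 10 were well counted in the first of these, where the background was 15.7% and 10.1%. In RT + shHDAC6 against RT, 8 were well counted, and the background was 3.0% higher and 5.29% lower. TAGLN, a smooth muscle actin-binding protein, had read counts of 731 (Ctrl), 930 (RT) and 482 (RT + shHDAC6), with log2 ratios of 0.78 (interval 0.64 to 0.92) and -1.01 (-1.17 to -0.85), but genes on the same strand cover 38.1% of its exon length and its rise was not a call with library totals (0.56). FLNA, filamin A, had a log2 ratio of 0.70 after RT, 0.48 with library totals. ACTA2 (871, 388 and 482 counts), CNN1 (110, 50 and 61 counts) and MYL9 (296, 144 and 189 counts) fell after RT with log2 ratios of -0.73, -0.70 and -0.60, of which that of MYL9 was no call with median-of-ratios scaling (-0.55). Genes on the other strand cover 36.0% of the exon length of ACTA2.

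Markers of endothelium and fibroblasts were also lowest in RT. The 3 endothelial markers summed to 23.1 CPM in Ctrl, 14.5 CPM in RT and 19.2 CPM in RT + shHDAC6, and the 3 fibroblast markers to 140.0, 94.1 and 113 CPM. The 3 blood cell markers did not follow this course, with sums of 3.2, 2.59 and 2.26 CPM. Together, the 9 markers of blood cells, endothelium and fibroblasts summed to 166 CPM in Ctrl, 111 CPM in RT and 134 CPM in RT + shHDAC6, and none was at 0 in any library. Their log2 ratio was below 0 for 8 of the 9 in RT against Ctrl, with a median of -0.56, and above 0 for 7 of the 9 in RT + shHDAC6 against RT (median 0.23). SAV1, TEAD3, VGLL3, ACTA2, CNN1, MYL9 and YAP1 had the same course, with the lowest level in RT, and the part of these markers in it was not tested. CCN1, CCN2, F3, TGFB2 and IGFBP3 had the opposite course.

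Among 8171 protein-coding genes with at least 500 counts in each library, the nearest to CCN2 by the distance between their pairs of log2 ratios (RT against Ctrl and RT + shHDAC6 against RT, over 3 libraries) was INHBA, an activin subunit, at a distance of 0.253. INHBA had read counts of 1345 (Ctrl), 3075 (RT) and 830 (RT + shHDAC6), with log2 ratios of 1.63 and -1.95. SGK1 (0.395), P3H2 (0.398) and LGALS3BP (0.418) followed. The nearest to YAP1 were MAPKAPK3 (0.00505), CCDC106 (0.0252), CKS2 (0.0309), YOD1 (0.0317) and CDC42EP4 (0.0357). Many genes had small ratios like those of YAP1, and distances near it are correspondingly short.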

How the data were processed

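RNA of T24 cells was profiled in 3 libraries, 1 per condition, grouped by their treatment labels. The authors used cutadapt for trimming and STAR for alignment to GRCh38 (version 2.6.1a in the labels, another in the study's text), and featureCounts with GENCODE release 28 for counting. The authors deposited raw counts per gene, not normalised. The labels and the study's text name different library kits, both stranded, and the strand setting and the handling of reads matching several genes were not given in the sources used here.

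Symbols and positions were taken from GENCODE release 44, which matched 57754 of 58381 identifiers. TMM factors were computed over the 3 libraries with edgeR 4.0.16 (R 4.3.3), median-of-ratios factors with DESeq2 1.42.0, and ratios and intervals in Python 3.11.15 (numpy 2.4.6, pandas 2.3.3, scipy 1.17.1). A count of 0 was set to 0.5. Ratios, 95% Clopper-Pearson intervals and calls were computed over all genes; neither edgeR nor DESeq2 can test 1 library per condition. Intervals of within-library ratios are normal approximations from the counts. The levels per kilobase use the merged exon length of each gene. Calls were checked on simulated counts. Alternatives covered the scaling, the fold, the interval, zeros, a filter on low counts, the mitochondrial genes, the promoter window and a re-implementation of the NOISeq procedure used by the study (numba 0.67.0; 5 samples of 20% of each library's depth; probability over 0.4 or 0.8).

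The 9 genes and the 6 further lists (Hippo kinases and scaffolds, junction and polarity proteins, TEAD partners, further YAP-TEAD targets, CCN family, SRF-MRTF targets) were chosen with earlier results of these data known. Named genes are the 9, HDAC6, listed genes called in both RT against Ctrl and RT + shHDAC6 against RT, at most the 3 largest rises and falls per list and comparison among genes with 100 or more counts in the higher library, and the 5 genes nearest to CCN2 and to YAP1. Some genes that this rule covers are not reported here.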

Additional observations from a re-analysis of the deposited data

How the results depend on the processing

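Compared with TMM, scaling by library totals moved every log2 ratio by -0.22 in RT against Ctrl, 0.08 in RT + shHDAC6 against RT and -0.13 in RT + shHDAC6 against Ctrl, and the other scalings by at most 0.06. Over all genes, RT against Ctrl then gave 1409 higher and 4851 lower calls in place of 2567 and 2735, RT + shHDAC6 against RT 1352 and 1095 in place of 1046 and 1330, and RT + shHDAC6 against Ctrl 1651 and 3944 in place of 2398 and 2907. Of the 9 genes, TEAD1 changed sign in RT against Ctrl, and YAP1 and CCN2 in RT + shHDAC6 against Ctrl, none of them a call. With a 2-fold rule, 0 genes in place of 1 were called lower in RT against Ctrl, 0 in place of 1 higher and 1 in place of 2 lower in RT + shHDAC6 against RT, and 3 in place of 5 higher in RT + shHDAC6 against Ctrl. A NOISeq probability over 0.4 gave 2 lower in RT against Ctrl and 5 higher in RT + shHDAC6 against RT. One over 0.8 gave 0 lower in RT against Ctrl, 1 lower in RT + shHDAC6 against RT and 3 higher in RT + shHDAC6 against Ctrl. These differences follow from the rules themselves. The other 51 counts of called genes stayed within 1.5 times. Over all genes, RT + shHDAC6 against RT gave 597 higher and 780 lower calls with the 2-fold rule, 3219 and 4123 with a probability over 0.4, and 80 and 221 over 0.8. RT against Ctrl gave 932 and 1353, 5809 and 5619, and 528 and 129, and RT + shHDAC6 against Ctrl 960 and 1701, 5494 and 5381, and 407 and 364. Without the condition on the interval, these comparisons gave 6957 and 6646, 6334 and 7799, and 6485 and 10609 calls, so depth limited many calls over all genes, but the calls of the 9 genes were the same. Extending the promoter window to 300 bases raised the listed promoters with GGAATG from 5 to 6 of 10. The share of all promoters rose from 11.9% to 14.0%. The added copy was that of LATS2 and lay after the start of transcription. No paired analysis was possible because each condition had 1 library. For the same reason no replicate could be left out, and the spread between cultures is unknown.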
